A study of Mus musculus with 4 samples.

Results

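The semaphorins, plexins, neuropilins, Eph receptors and ephrins were examined as the axon guidance ligands and receptors of 4 mouse cell populations. A gene belonged to the group when its symbol was Sema, Plxn, Nrp, Epha, Ephb, Efna or Efnb followed by a number, with or without a letter before or after it. The arrays named 52 such genes through 123 probe sets, of 18193 genes and 45101 probe sets in all. The 52 genes were 20 semaphorins, 9 plexins, 2 neuropilins, 13 Eph receptors and 8 ephrins. Ephb2 also meets the rule in the reference gene table and was not analysed here.

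Semaphorins are secreted or membrane-bound proteins that steer growing axons and migrating cells, mostly by repulsion. Plexins are their signalling receptors, and neuropilins are co-receptors that bind most of the secreted class 3 semaphorins and pass the signal to A-type plexins. Ephrins are membrane-held ligands of the Eph receptor tyrosine kinases. They signal at cell contacts, in both cells, and in neural tissue they set boundaries, topographic maps and the spacing of progenitors.

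Total RNA was measured with 1 Affymetrix mouse array for each population. MEF were mouse embryonic fibroblasts, NSC were neural stem cells derived from primary tissue, and iNSC_13F and iNSC_14F were induced neural stem cells made with 13 and 14 factors. For NSC and the induced cells the medium was N2, supplemented with the growth factors EGF and bFGF and with laminin. The labels do not say how the fibroblasts were grown, which factors were used and from which cell each induced sample started, and the series as a whole concerns adult liver cells and B lymphocytes. They also give no strain or age and do not say whether a sample came from 1 culture or several. The source label reads embryonic stem cells for all 4 samples, differs from the cell type label and was not used. Each group has 1 array, so differences between arrays cannot be set against a spread between replicates, and they are given as sizes without tests. In such bulk samples fewer cells of a type and less RNA per cell cannot be told apart.

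The labelled cell types were set against marker genes. Of 12 neural stem cell markers, 5 were above the floor on MEF, 12 on NSC, 9 on iNSC_13F and 10 on iNSC_14F. The floor was a signal of 103.91, set from receptor genes of smell and taste. Of 12 fibroblast markers, 11 were above it on MEF, 2 on NSC, 6 on iNSC_13F and 3 on iNSC_14F, with summed signals of 178300, 6696, 17570 and 20130. Fbln2 made up most of the induced sums, at 15280 on iNSC_13F and 19530 on iNSC_14F. Of 11 neuron markers, 2, 6, 6 and 3 were above the floor on MEF, NSC, iNSC_13F and iNSC_14F, with summed signals of 4227, 2148, 1127 and 611.5, and Dcx was below it on all 4. No hepatocyte marker of 7 was above it on any array, and Kdr was the only endothelial marker of 8 that was, on MEF and iNSC_13F. Between NSC and MEF, 3 guidance genes were at least 4-fold higher on NSC and 9 on MEF. The 9 had the direction of the measured fibroblast markers there, which follows from how they were picked. On the induced arrays the median log2 difference of these markers from MEF was -5.53 on iNSC_13F and -5.99 on iNSC_14F. Of the 9 genes, 1 was within 2-fold of MEF on iNSC_13F (Plxna1) and 1 on iNSC_14F (Efna5). The part of the fibroblast markers in these differences was not tested. The hybridization controls, transcripts added in the laboratory, were 1.85-fold brighter on MEF than on NSC, 2.11-fold brighter on iNSC_13F and 1.86-fold brighter on iNSC_14F, while the deposited scaling gives every array the same trimmed mean. Scaling to these controls instead moved the median log2 difference of all genes from -0.01 to 0.80 for NSC over MEF, from 0.30 to -0.65 for iNSC_13F over NSC and from 0.33 to -0.48 for iNSC_14F over NSC. Values below are on the deposited scaling. No 4-fold difference of a member turned direction when scaled to the controls or quantile normalized. Smaller differences did, in comparisons with NSC and also for iNSC_13F over MEF. In the latter the log2 difference of Plxna3 went from -0.20 to 0.04 when quantile normalized.

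Promoters of the guidance genes were read from RefSeq sequences of the GRCm38.p6 assembly, as the 250 bases before each annotated start. Of the 52 genes 46 had a promoter in that table, 60 promoters in all. They were rich in G and C, with a median of 64.2% against 52.4% over all 32851 promoters and 55.6% over those of protein-coding genes. The median count of CpG dinucleotides was 15.5, against 6 over all promoters and 10 over those of coding genes. The GC box letters GGGCGG, searched on both strands, occurred in 76.7% of these promoters, against 32.7% of all promoters and 42.6% of those of coding genes. The TATA letters TATAAA occurred in 1.67%, against 12.4% of all promoters. The letters ACAATG, a core that SOX factors can bind, occurred in 6 of 60 promoters, against 10.7% of all promoters. A match is a description of the letters and not evidence of binding.

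For each of the 3 members that were at least 4-fold brighter on NSC than on MEF, 1 promoter is printed. The same was done for 2 members on the opposite side, to show the sequences beside which the signals differ. Capitals mark GGGCGG and ACAATG or their reverse complements, and each sequence runs 5′ to 3′ on the strand of its gene, with gene identifiers as the files give them. The printed promoter of Sema6d (gene 214968) is at chr2:124089719-124089968 on the plus strand. Another Sema6d promoter, at chr2:124653331-124653580 on the same strand, is not printed. It held no GC box and 6 CpG, with 45.2% G and C. Which of them gives the measured signal was not tested. The promoter of Plxnb3 (gene 140571) is at chrX:73756853-73757102 on the plus strand and that of Epha5 (gene 13839) at chr5:84417383-84417632 on the minus strand. The promoter of Nrp1 (gene 18186) is at chr8:128358823-128359072 and that of Epha2 (gene 13836) at chr4:141300971-141301220, both on the plus strand.
Sema6d: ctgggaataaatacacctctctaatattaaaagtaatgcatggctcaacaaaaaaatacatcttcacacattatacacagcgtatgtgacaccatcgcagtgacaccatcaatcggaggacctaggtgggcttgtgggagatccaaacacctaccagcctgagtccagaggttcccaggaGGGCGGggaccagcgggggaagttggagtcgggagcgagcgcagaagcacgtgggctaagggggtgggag
Plxnb3: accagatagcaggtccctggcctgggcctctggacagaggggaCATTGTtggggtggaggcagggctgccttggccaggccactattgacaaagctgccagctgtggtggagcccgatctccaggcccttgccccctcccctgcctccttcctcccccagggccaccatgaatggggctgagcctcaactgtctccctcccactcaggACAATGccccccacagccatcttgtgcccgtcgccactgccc
Epha5: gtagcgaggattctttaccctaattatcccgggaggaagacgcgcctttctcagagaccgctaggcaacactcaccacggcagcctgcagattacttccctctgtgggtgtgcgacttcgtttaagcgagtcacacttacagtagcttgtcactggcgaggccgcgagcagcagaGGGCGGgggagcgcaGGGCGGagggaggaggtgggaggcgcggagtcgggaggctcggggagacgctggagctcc
Nrp1: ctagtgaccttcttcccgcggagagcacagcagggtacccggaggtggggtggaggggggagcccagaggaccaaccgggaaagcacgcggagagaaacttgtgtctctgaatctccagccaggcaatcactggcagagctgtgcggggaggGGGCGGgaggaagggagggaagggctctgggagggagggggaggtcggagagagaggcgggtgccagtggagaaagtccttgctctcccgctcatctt
Epha2: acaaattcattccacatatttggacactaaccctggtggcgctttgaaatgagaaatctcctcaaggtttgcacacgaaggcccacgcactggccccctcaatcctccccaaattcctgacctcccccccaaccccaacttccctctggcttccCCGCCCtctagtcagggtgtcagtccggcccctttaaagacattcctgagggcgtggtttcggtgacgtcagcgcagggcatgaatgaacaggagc
The Epha5 promoter held 2 GC boxes and 20 CpG, and the Plxnb3 promoter held no GC box, 3 CpG and 2 ACAATG matches. The printed Sema6d promoter and the Nrp1 and Epha2 promoters held 1 GC box each, with 9, 11 and 9 CpG.

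Most guidance genes were measurable in these cells. Of the 52 genes, 35 were above the floor on MEF (67.3%), 28 on NSC (53.8%), 31 on iNSC_13F (59.6%) and 29 on iNSC_14F (55.8%). Over all genes these shares were 58.0%, 54.2%, 55.9% and 54.7%. Above the floor on at least 1 array were 43 members, and 19 were above it on all 4. The 9 members below it everywhere were Epha1, Epha6, Epha8, Epha10, Ephb6, Sema3b, Sema3g, Sema4a and Sema5a.

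The families differed in how they were spread over the arrays. Plexins were evenly present, with 8 of 9 above the floor on each array, and both neuropilins were above it on all 4. Class 3 semaphorins, the secreted ligands of neuropilins, were above the floor for 4 of 7 genes on MEF and on NSC and for 1 of 7 on each induced array. EphA receptors were above it for 3 of 9 genes on MEF (Epha2, Epha3 and Epha4), for 2 on NSC (Epha5 and Epha7) and for 0 on each induced array. EphB receptors went the other way, with 2 of 4 on MEF and NSC and 3 of 4 on the induced arrays. All 5 ephrin-A genes were above the floor on MEF, 2 on NSC and 4 on each induced array. These counts depend on the floor. The 95th percentile of the smell and taste receptor probe sets was 103.91 on MEF, which set the floor. It was 37.05 on NSC, 99.42 on iNSC_13F and 70.95 on iNSC_14F. Efna1, Efna3 and Efna5 were below the floor on NSC but above the 95th percentile of that array, at 69.8, 78.0 and 95.6. So were Ephb4 and Ephb6, at 60.1 and 39.1, and Sema4d, Sema4g and Sema7a, at 85.7, 67.6 and 90.4. With each array held to its own 95th percentile of the receptor probe sets, 4 EphA genes counted on NSC, 0 on iNSC_13F and 2 on iNSC_14F (Epha4 and Epha5), and with any probe set of a gene allowed to count 1 did on iNSC_14F (Epha5).

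**Figure D1:**
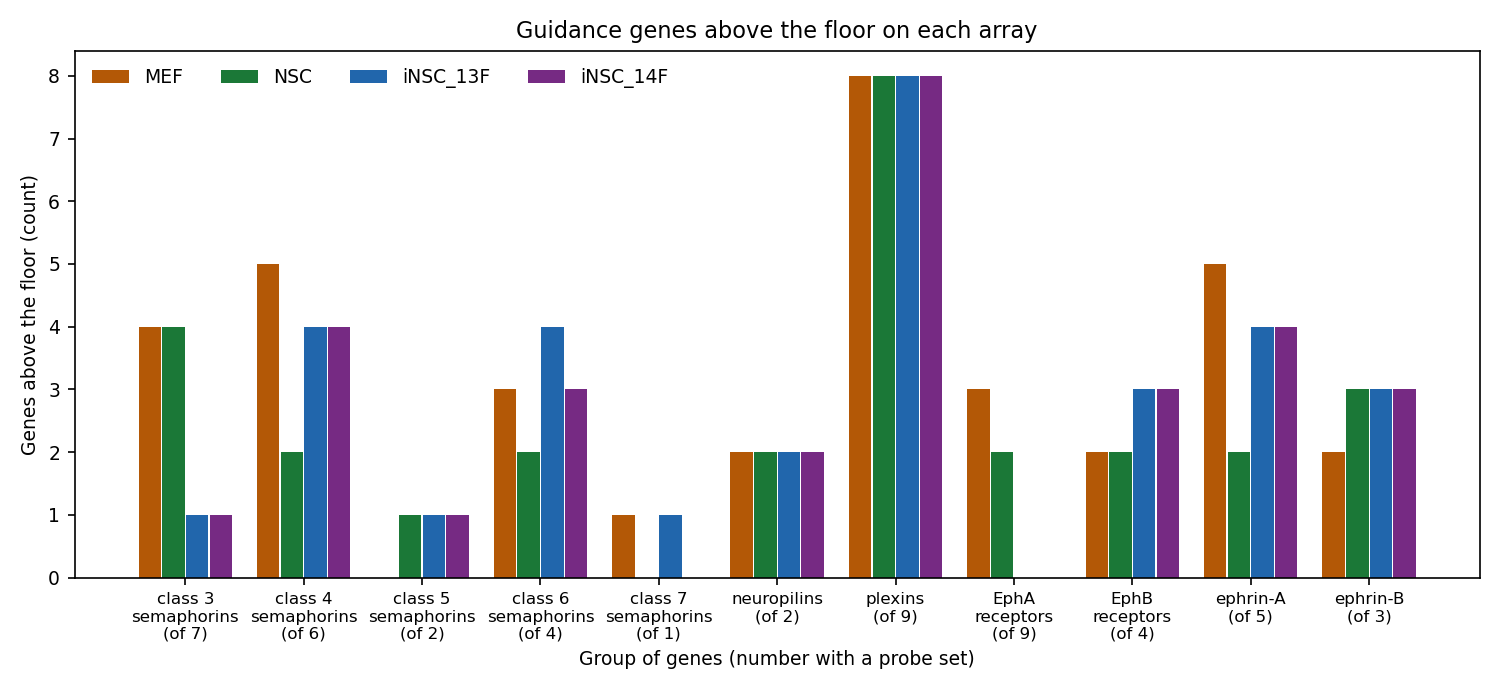
Bars give the number of genes above the floor of 103.91 (vertical axis, count) on each of 4 arrays for each group of guidance genes (horizontal axis, with the number of genes that have a probe set). EphA receptors have 3 genes on MEF, 2 on NSC and 0 on both induced arrays, class 3 semaphorins have 4, 4, 1 and 1, and plexins have 8 on every array.

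Differences were counted when 2 arrays were at least 4-fold apart and the brighter was above the floor, and a member counted as measured when 1 array of the pair or both exceeded the floor. Signals below the floor were set to it, so a fold against such an array is a lower bound, written as at least. Between NSC and MEF, 3 of 42 measured members were 4-fold higher on NSC, where 6.09% of all measured genes were, and 9 were 4-fold lower, where 7.21% were. Together they were 28.6% of the measured members, where 13.3% of all measured genes were 4-fold apart. At 2-fold, 9 members were higher and 16 lower on NSC, beside 19.9% and 17.5% of all genes. The median log2 difference was -0.34 for members and -0.01 for all genes. Of all genes called, 45.8% were higher on NSC, a share that became 79.0% when scaled to the hybridization controls. The member counts became 9 higher and 7 lower, beside 16.5% and 4.39% of all genes.

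Against MEF, the induced cells also differed in more guidance genes than the background share. On iNSC_13F, 5 of 40 measured members were 4-fold higher and 7 were lower, which is 30.0% against 12.9% of all genes, of which 3.66% were higher and 9.27% lower. On iNSC_14F, 6 of 40 were higher and 9 were lower, which is 37.5% against 12.5%, of which 4.49% were higher and 8.03% lower. At 2-fold, 9 were higher and 12 lower on iNSC_13F, beside 15.6% and 20.9% of all genes, and 13 were higher and 14 lower on iNSC_14F, beside 18.0% and 19.0%. The member medians were -0.17 and 0.23, beside 0.09 and 0.10 over all genes. These comparisons share the MEF array with the one above, so the 3 are not independent of each other.

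Against NSC, the share of members 4-fold apart in either direction was below or near the background share. By direction, on the deposited scaling, members on iNSC_14F were more often higher and less often lower than all genes. On iNSC_13F, 1 of 36 measured members was 4-fold higher and 1 was lower, which is 5.56% against 12.3% of all genes. On iNSC_14F, 4 of 34 were higher and 1 was lower, which is 14.7% against 10.8%. The background was mostly genes lower on the induced arrays, with 11.3% of all genes lower and 1.07% higher on iNSC_13F and 9.4% lower and 1.42% higher on iNSC_14F. At 2-fold, 10 were higher and 6 lower on iNSC_13F, beside 14.8% and 20.8% of all genes, and 8 were higher and 8 lower on iNSC_14F, beside 16.9% and 19.3%. Member medians of 0.50 and 0.53 stood beside 0.30 and 0.33 over all genes. Scaled to the hybridization controls, the members gave 0 higher and 5 lower on iNSC_13F and 0 higher and 4 lower on iNSC_14F, with medians of -0.47 and -0.34 beside all-gene medians of -0.65 and -0.48. Under that scaling 0.285% of all measured genes were higher and 20.3% lower on iNSC_13F. The share of higher calls among all genes on iNSC_14F went from 13.2% to 2.04%.

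No member was 4-fold apart between the induced arrays, where 31 were measured and 0.842% of all genes passed, 0.5% higher and 0.342% lower on iNSC_14F. The share of higher calls among all genes of this pair was 59.3%, and 74.8% when scaled to the hybridization controls. At 2-fold, Efna3, Efna4 and Ephb3 were higher on iNSC_14F, beside 6.03% of all genes, and Plxnb3, Sema6c and Sema7a were lower there, beside 2.97%. Among 9311 genes above the floor on both induced arrays, 95% differed by less than 2.32-fold. Of 29 members above the floor on both, 3 lay beyond that value.

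**Figure D2:**
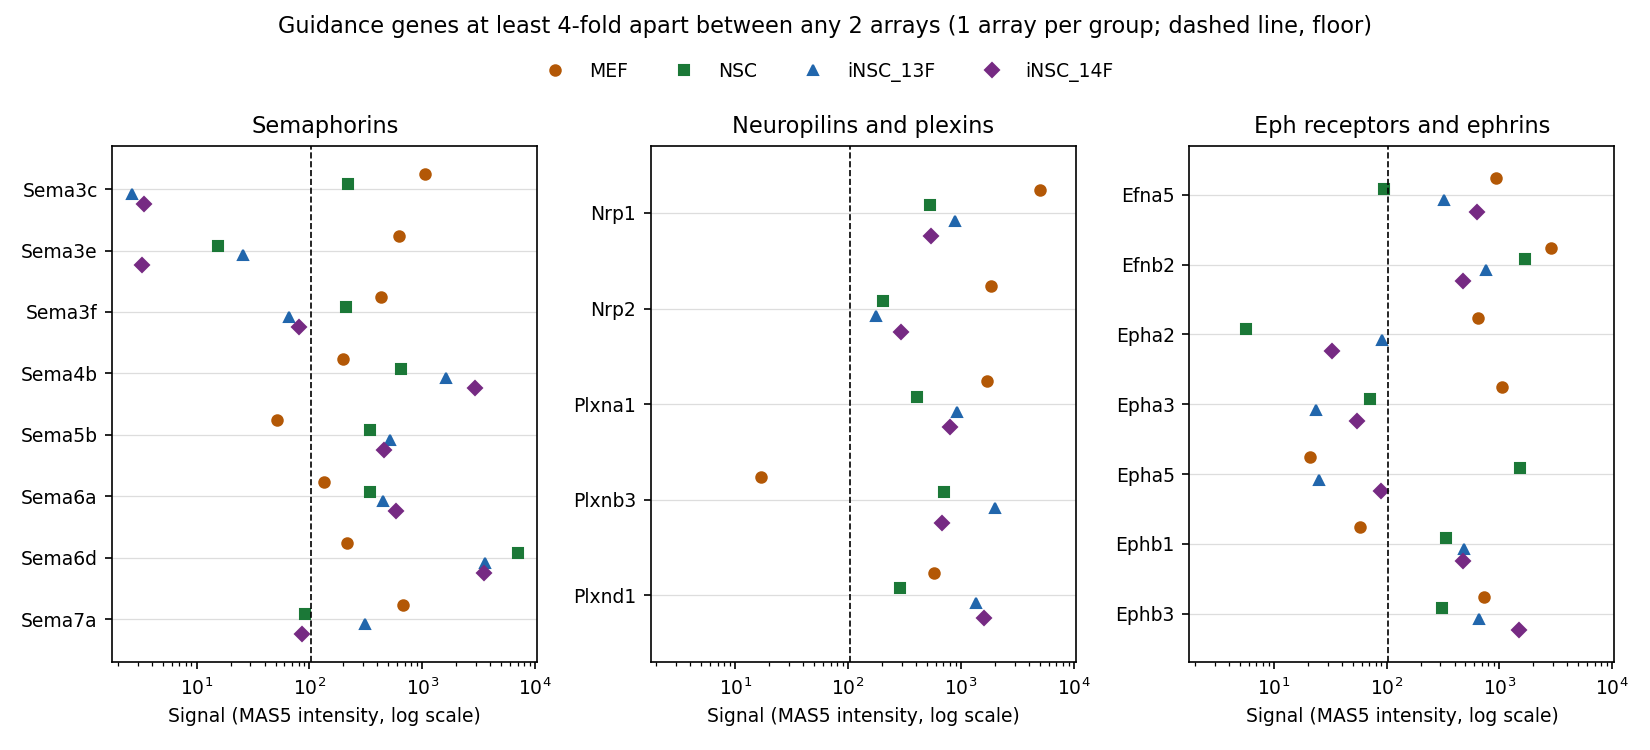
Each point is the signal of 1 array (horizontal axis, MAS5 intensity on a log scale) for the 20 guidance genes that were at least 4-fold apart between any 2 arrays (vertical axis), and the dashed line is the floor of 103.91. Nrp1 and Nrp2 lie rightmost on MEF, Epha5 is above the floor on NSC alone, and Sema4b runs from 196.6 on MEF to 2952 on iNSC_14F.

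Among the ligands, 4 of the 5 measured class 3 semaphorins, which are secreted, were highest on MEF. Sema3c, a secreted semaphorin that guides axons and cells of the cardiac outflow tract, had signals of 1065 on MEF, 221.2 on NSC, 2.65 on iNSC_13F and 3.43 on iNSC_14F. It was thus 4.81-fold lower on NSC than on MEF and at least 10.3-fold lower on each induced array, where it was below the floor while NSC was above it. The signals of Sema3e, the semaphorin that binds Plxnd1 without a neuropilin, were 627.4 on MEF, 15.4 on NSC, 25.8 on iNSC_13F and 3.28 on iNSC_14F. MEF alone was above the floor, and each of the other arrays was at least 6.04-fold lower. Sema3f, a ligand that prefers Nrp2, had signals of 431.9 on MEF, 211.3 on NSC, 66.2 on iNSC_13F and 80.0 on iNSC_14F. At this brightest probe set both induced arrays were at least 4.16-fold below MEF and at least 2.03-fold below NSC. The other probe sets of Sema3f were above the floor on MEF alone, at 163.2 and 157.2, and showed no difference from NSC. Sema3a, the classic collapse-inducing ligand of Nrp1, was above the floor everywhere, at 512.0, 465.1, 256.5 and 209.3 on MEF, NSC, iNSC_13F and iNSC_14F. Its NSC signal was 1.10-fold below MEF, a direction that turned when scaled to the hybridization controls, and iNSC_14F was 2.45-fold below MEF. Sema3d was above the floor on NSC alone, at 104.5. Over the measured class 3 genes, with those at the floor entered at their bound, the median log2 difference was -1.03 on NSC, -2.32 on iNSC_13F and -2.32 on iNSC_14F against MEF. It stayed negative under both other scalings, at -0.14 on NSC when scaled to the hybridization controls.

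Of 9 measured transmembrane semaphorins of classes 4 to 6, 4 were at least 2-fold higher on NSC than on MEF and 1, Sema6c, was lower. Over all genes 19.9% were higher and 17.5% lower. On iNSC_13F 5 of 10 were 2-fold higher than MEF and 0 lower, beside 15.6% and 20.9% of all genes. On iNSC_14F 6 of 10 were higher and 1 lower, beside 18.0% and 19.0%. Sema6d, a membrane semaphorin that binds Plxna1 and Plxna4 and can itself act as a receptor, had signals of 216.8 on MEF, 7059 on NSC, 3598 on iNSC_13F and 3507 on iNSC_14F. At this brightest probe set all 3 neural arrays were far above MEF, by 32.6-fold on NSC, 16.6-fold on iNSC_13F and 16.2-fold on iNSC_14F. The induced arrays were 1.96-fold and 2.01-fold below NSC. At another probe set iNSC_13F was above NSC, at 218.5 against 142.8, and iNSC_14F was below the floor, at 74.7. With probe sets of a gene combined by their median, Sema6d was not called 4-fold above MEF on any array. Sema4b, a class 4 membrane semaphorin, had signals of 196.6 on MEF, 650.9 on NSC, 1621 on iNSC_13F and 2952 on iNSC_14F. It was 8.25-fold and 15.0-fold above MEF on the induced arrays and 3.31-fold above it on NSC, so that the induced arrays exceeded both references. Against NSC the excess on iNSC_14F was 4.54-fold, or a log2 difference of 2.18, which became 1.28 when scaled to the hybridization controls. That on iNSC_13F was a log2 difference of 1.32, which became 0.24.

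Sema5b and Sema6a were also lowest on MEF, with smaller steps. Sema5b, a class 5 semaphorin known from the developing retina, had signals of 51.9 on MEF, 346.8 on NSC, 517.7 on iNSC_13F and 456.2 on iNSC_14F, so that MEF was below the floor and the others above it. The fold over MEF was at least 3.34 on NSC, at least 4.98 on iNSC_13F and at least 4.39 on iNSC_14F. Sema6a, a ligand of Plxna2 and Plxna4 in the cerebellum, had signals of 134.1, 341.1, 452.9 and 579.0 on MEF, NSC, iNSC_13F and iNSC_14F. MEF was lowest, and iNSC_14F was 4.32-fold above it, but another probe set of Sema6a was above the floor on MEF alone, at 107.8, with a log2 difference of -0.05 for iNSC_14F over MEF. Sema4c, a ligand of Plxnb2, was 2.05-fold and 2.07-fold above MEF on iNSC_13F and iNSC_14F. Sema4d, at 129.1, 85.7, 208.6 and 178.7 on MEF, NSC, iNSC_13F and iNSC_14F, and Sema4g, at 108.1, 67.6, 195.5 and 280.5, were below the floor on NSC alone. Sema4f was above it on MEF alone, at 133.7. Over the measured genes of classes 4 to 6 the median log2 difference against MEF was 0.53 on NSC, 0.95 on iNSC_13F and 1.21 on iNSC_14F, and it was positive under all 3 scalings. Against NSC the medians were 0.58 on iNSC_13F and 0.64 on iNSC_14F, which turned to -0.33 and -0.16 when scaled to the hybridization controls.

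Sema7a and Sema6c separated the induced arrays. Sema7a, a lipid-anchored semaphorin that promotes axon growth through integrins, had signals of 670.7 on MEF, 90.4 on NSC, 312.8 on iNSC_13F and 86.5 on iNSC_14F. It was above the floor on MEF and iNSC_13F only, at least 6.46-fold lower than MEF on NSC and iNSC_14F and 2.14-fold lower on iNSC_13F. Sema6c had signals of 308.9, 31.7, 295.6 and 40.6 on MEF, NSC, iNSC_13F and iNSC_14F, the same split. Its probe sets disagreed, since another one had signals of 38.0, 39.4, 159.1 and 132.0 and was above the floor on both induced arrays and on neither reference. Of 6 fibroblast markers measured between the induced arrays, 2 were at least 2-fold lower on iNSC_14F and 0 higher, beside 2.97% and 6.03% of all genes. Twist1, the 1 at least 4-fold lower, had the split of Sema7a, at 1638 on MEF, 10.8 on NSC, 1241 on iNSC_13F and 54.7 on iNSC_14F. Col1a2 was alike on iNSC_13F and iNSC_14F, at 115.6 and 114.5, and Fbln2 was brighter on iNSC_14F, at 15280 and 19530. The part of these markers in the differences of Sema7a and Sema6c was not tested.

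Among the receptors, both neuropilins were lower on all 3 other arrays than on MEF. Nrp1, the co-receptor of Sema3a and of vascular endothelial growth factor, had signals of 5062 on MEF, 527.9 on NSC, 882.2 on iNSC_13F and 547.7 on iNSC_14F. The fold below MEF was 9.59 on NSC, 5.74 on iNSC_13F and 9.24 on iNSC_14F. Nrp2, the co-receptor of Sema3f, had signals of 1869 on MEF, 202.3 on NSC, 178.1 on iNSC_13F and 292.8 on iNSC_14F, and its fold below MEF was 9.24, 10.5 and 6.39. For both genes MEF stood apart. At their brightest probe sets and on the deposited scaling, the other 3 arrays were within 2-fold of each other. Their median against MEF stayed negative under all 3 scalings, whereas against NSC it turned from 0.28 to -0.80 on iNSC_13F and from 0.29 to -0.61 on iNSC_14F when scaled to the hybridization controls.

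The plexins held members that moved in each direction. Plxnb3, a B-type plexin that binds Sema5a and is known from oligodendrocyte-lineage and other neural cells, had signals of 17.1 on MEF, 706.0 on NSC, 1997 on iNSC_13F and 675.2 on iNSC_14F. It was below the floor on MEF alone, and the fold above MEF was at least 6.80 on NSC, at least 19.2 on iNSC_13F and at least 6.50 on iNSC_14F. iNSC_13F exceeded NSC by 2.83-fold. Plxna1, the A-type plexin that pairs with Nrp1, had signals of 1690 on MEF, 412.0 on NSC, 928.4 on iNSC_13F and 799.4 on iNSC_14F. The induced arrays lay between the references, and the 4.10-fold step between NSC and MEF was close to the threshold.

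On the deposited scaling Plxnd1 was the only plexin at least 4-fold apart between the induced arrays and NSC. This receptor of Sema3e had signals of 578.0 on MEF, 286.2 on NSC, 1364 on iNSC_13F and 1610 on iNSC_14F, so that both induced arrays were above both references. The excess over NSC was 4.77-fold on iNSC_13F and 5.63-fold on iNSC_14F, and that over MEF was 2.36-fold and 2.79-fold. Its log2 differences over NSC were 2.25 and 2.49, and they became 1.18 and 1.59 when scaled to the hybridization controls. Plxna2 and Plxnc1 were brightest on NSC. Plxna2, a receptor of Sema6a, had signals of 236.8, 734.2, 356.0 and 290.4, and Plxnc1, the receptor of Sema7a, had signals of 161.2, 477.8, 168.5 and 235.7, on MEF, NSC, iNSC_13F and iNSC_14F. On the deposited scaling and at its brightest probe set, each was 2-fold or more above both MEF and the induced arrays on NSC. All 4 probe sets of Plxna2 were highest on NSC, but 1 of them had only 153.2, 313.6, 232.3 and 292.2 on the same arrays. With quantile normalization the log2 difference from NSC was -0.70 for Plxna2 on iNSC_13F and -0.75 for Plxnc1 on iNSC_14F. Scaled to the hybridization controls, the differences from NSC on iNSC_13F and iNSC_14F were -2.12 and -2.24 for Plxna2. For Plxnc1 they were -2.58 and -1.92, so which plexins were 4-fold from NSC depended on the scaling. Plxnb2, a receptor of class 4 semaphorins in neural progenitors, had signals of 1594, 1344, 2050 and 2976, and iNSC_14F exceeded NSC by 2.21-fold. Each of the remaining plexins, Plxna3, Plxna4 and Plxnb1, differed by at most 2.14-fold between any 2 arrays at its brightest probe set, with signals below the floor set to it. The other probe set of Plxnb1 was above the floor on all 4 arrays, at 141.1 on MEF, 379.1 on NSC, 557.5 on iNSC_13F and 633.2 on iNSC_14F, with log2 differences over MEF of 1.43, 1.98 and 2.17. The plexin median against MEF was -0.25 on NSC, 0.36 on iNSC_13F and 0.55 on iNSC_14F, and the NSC value turned to 0.64 when scaled to the hybridization controls.

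EphA receptors split into members of MEF and members of NSC. Epha2, a receptor common in epithelial and migrating cells, had signals of 650.8 on MEF, 5.72 on NSC, 91.1 on iNSC_13F and 32.9 on iNSC_14F. Epha3, a receptor of Efna5 in mesenchyme and in visual maps, had signals of 1045 on MEF, 71.1 on NSC, 23.7 on iNSC_13F and 54.9 on iNSC_14F. MEF alone was above the floor for both genes. The other arrays were lower by at least 6.26-fold for Epha2 and by at least 10.1-fold for Epha3. Epha4, a receptor of both ephrin classes, had signals of 329.2, 70.4, 81.3 and 80.1 on MEF, NSC, iNSC_13F and iNSC_14F and was at least 3.17-fold lower outside MEF.

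Epha5 had the opposite pattern and was, on the deposited scaling, the only member 4-fold lower than NSC on both induced arrays. This receptor of forebrain neurons and progenitors had signals of 21.1 on MEF, 1532 on NSC, 24.9 on iNSC_13F and 88.5 on iNSC_14F. NSC was at least 14.7-fold above each other array, which were all below the floor. The difference from NSC kept its direction on all 4 probe sets and under all 3 scalings. The log2 difference of each induced array from NSC was -3.88 at the floor. Epha7, a receptor that can act in neural progenitors, was just above the floor on NSC, at 115.9, and below it elsewhere.

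Of the 4 EphB receptors, 2 were above the floor on MEF and on NSC and 3 on each induced array, a difference of 1 gene. Ephb1, a receptor of ephrin-B ligands that sends retinal axons to the same side, had signals of 57.6 on MEF, 336.1 on NSC, 481.4 on iNSC_13F and 479.8 on iNSC_14F. MEF was the 1 array below the floor, with at least 3.23-fold on NSC, at least 4.63-fold on iNSC_13F and at least 4.62-fold on iNSC_14F above it. Ephb3, a receptor known from intestinal crypts and midline axons, had signals of 734.5 on MEF, 307.9 on NSC, 661.3 on iNSC_13F and 1478 on iNSC_14F. iNSC_14F was highest and NSC lowest, 4.80-fold apart. Ephb4, the receptor of Efnb2 on veins, had signals of 328.3, 60.1, 146.5 and 232.3 on MEF, NSC, iNSC_13F and iNSC_14F and was below the floor on NSC alone. The median of the 3 measured EphB genes against MEF was -1.25 on NSC, -0.15 on iNSC_13F and 1.01 on iNSC_14F, of which the iNSC_13F value turned to 0.01 with quantile normalization.

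Of the 8 ephrins, ligands of these receptors, 1 was 4-fold apart between NSC and MEF, where 13.3% of all genes were. Efna5, a ligand of Epha3 and Epha5, had signals of 929.7 on MEF, 95.6 on NSC, 323.2 on iNSC_13F and 627.2 on iNSC_14F. NSC was below the floor and at least 8.95-fold below MEF, and the induced arrays were 2.88-fold and 1.48-fold below MEF. Efna5 was thus at least 3.11-fold above NSC on iNSC_13F and at least 6.04-fold above it on iNSC_14F, and Epha5 was high on NSC and below the floor on the other 3 arrays. Efnb2, the ligand of Ephb4 and a marker of arteries, had signals of 2854 on MEF, 1672 on NSC, 754.7 on iNSC_13F and 478.4 on iNSC_14F. Both induced arrays were below both references, by 3.78-fold and 5.97-fold against MEF and by 2.22-fold and 3.50-fold against NSC. Efnb1, another ligand of EphB receptors, had signals of 1225, 366.4, 788.3 and 474.6 on MEF, NSC, iNSC_13F and iNSC_14F.

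The other ephrins included 2 whose induced arrays differed by more than the 2.32-fold given above. Efna3 had signals of 116.2 on MEF, 78.0 on NSC, 114.5 on iNSC_13F and 359.3 on iNSC_14F, and Efna4 had 416.4, 371.0, 300.3 and 699.7 on the same arrays. iNSC_14F exceeded iNSC_13F by 3.14-fold for Efna3 and by 2.33-fold for Efna4. Efna2 was 1.80-fold and Efnb3 at least 2.49-fold above MEF on iNSC_14F, and Efna1 was above the floor on MEF alone. The NSC medians against MEF of the ephrin-A and ephrin-B genes, -0.17 and -0.77, turned to 0.31 and 0.12 when scaled to the hybridization controls.

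The members that separate the references were then placed on the induced arrays. Of the 9 with a 4-fold lower NSC signal, 5 lay on iNSC_13F within 2-fold of the NSC value (Epha2, Epha3, Nrp1, Nrp2 and Sema3e) and 7 did on iNSC_14F, where Plxna1 and Sema7a joined them. For Epha2, Epha3 and Sema3e, and for Sema7a on iNSC_14F, NSC and the induced array were both below the floor and set to it, so that this nearness follows from the floor and was not measured. The same setting of low signals applied over all 828 such genes, of which 68.2% and 66.8% lay that near to NSC. Equally near to MEF were Plxna1 on iNSC_13F and Efna5 on iNSC_14F. Sema3c lay below both references on both induced arrays. Of the 3 that were 4-fold higher on NSC, Sema6d was within 2-fold of NSC on iNSC_13F and Plxnb3 was on iNSC_14F, while Epha5 was below the floor on both, as on MEF. Plxnb3 exceeded NSC on iNSC_13F, and Sema6d lay between the references on iNSC_14F, just outside the 2-fold limit at 2.01-fold. Over all 700 such genes, 33.6% and 35.3% were within 2-fold of NSC.

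Separate probe sets of a gene were compared, since they read different stretches of its transcripts on the same array and are not replicates. All 4 probe sets of Nrp1 were lower on NSC than on MEF, by at least 2.76-fold to 11.7-fold, and so were the 3 measured ones of Nrp2. A dimmer probe set of Nrp1 was also more than 2-fold lower on iNSC_14F than on NSC, at 95.3 against 219.1. All 4 of Epha5 were higher on NSC than on MEF, by at least 2.41-fold to at least 14.7-fold. On iNSC_14F 1 of them was above the floor, at 121.1. Both probe sets of Plxnb3 were highest on iNSC_13F. The 4 of Sema3e were above the floor on MEF alone. For Sema6d, 2 of 4 were above the floor on any array, and the dimmer of these, at 142.8 on NSC against 78.4 on MEF, was at least 1.37-fold higher on NSC where the brightest was 32.6-fold higher.

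**Figure D3:**
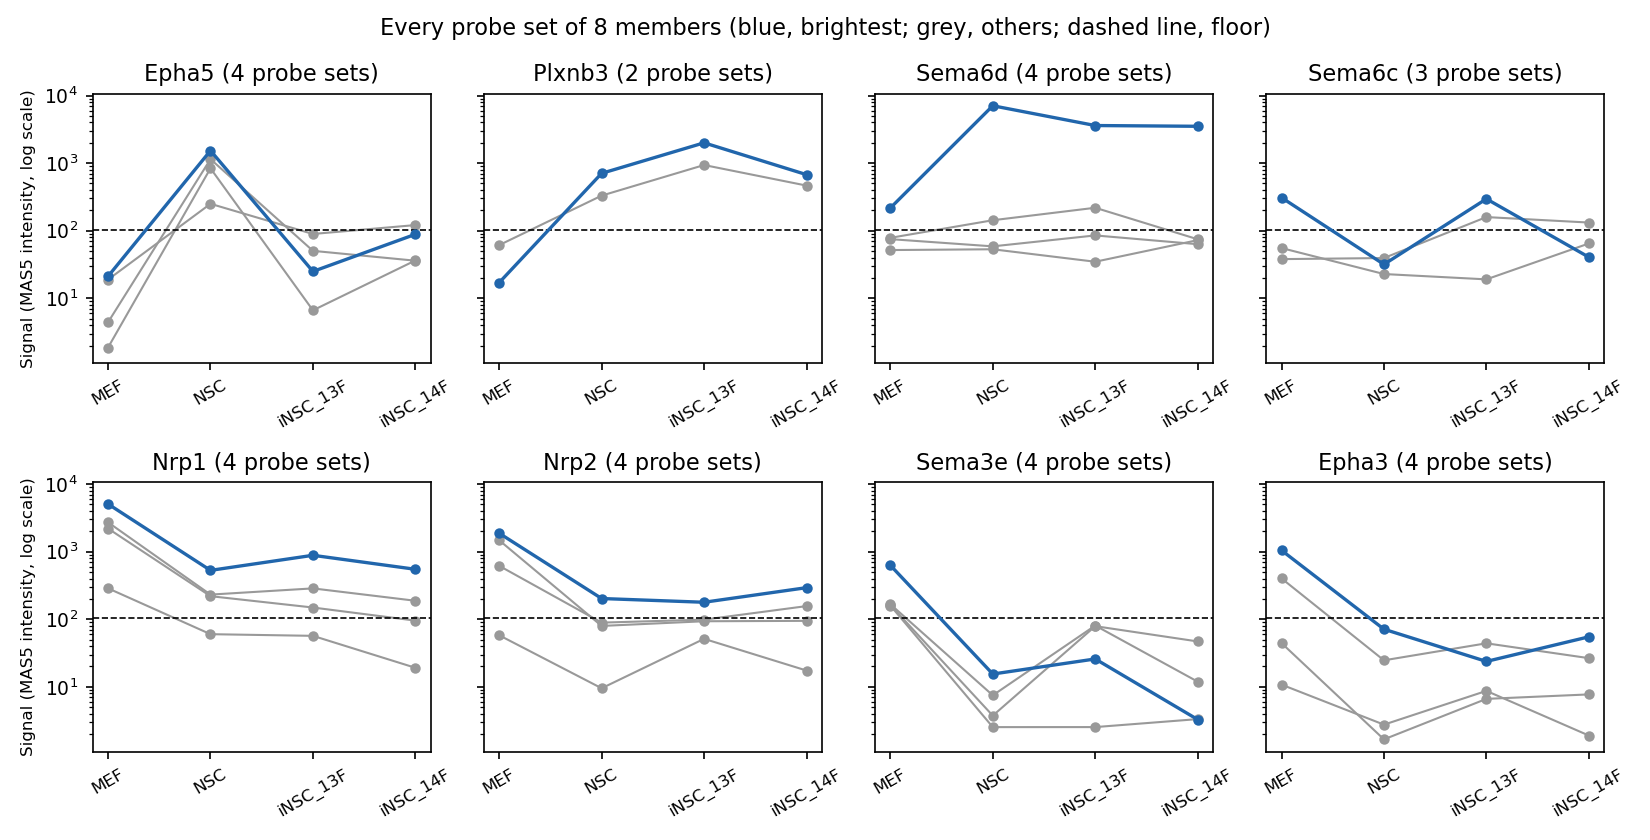
Each panel plots every probe set of 1 gene across the 4 arrays (vertical axis, MAS5 intensity on a log scale), with the brightest in blue, the others in grey and the floor of 103.91 dashed, and lines join the values of 1 probe set. All 4 probe sets of Epha5 are highest on NSC, all 4 of Nrp1 on MEF and both of Plxnb3 on iNSC_13F, 1 of 4 carries the high Sema6d signals, and those of Sema6c cross.

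**Figure D4:**
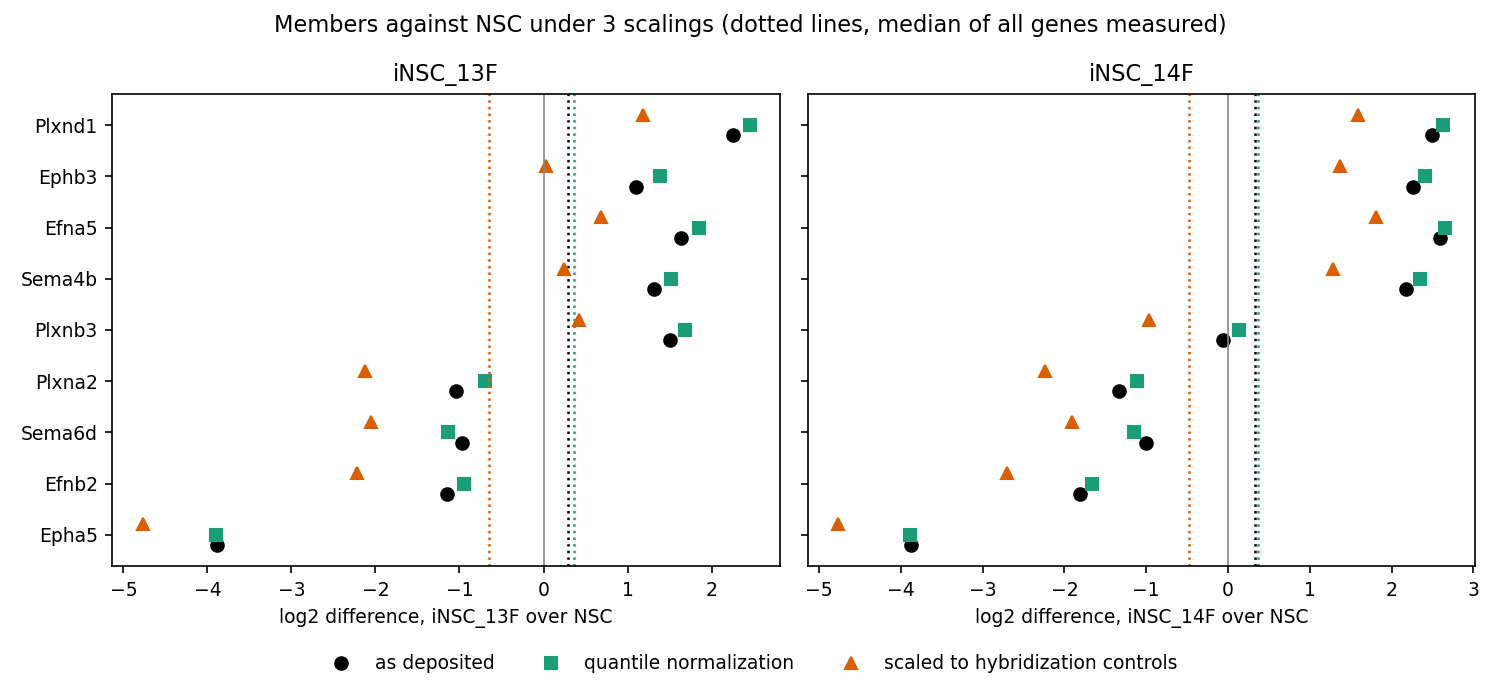
Points give the log2 difference of iNSC_13F (left) and iNSC_14F (right) over NSC (horizontal axis) for 9 guidance genes on the deposited scaling, with quantile normalization and scaled to the hybridization controls, and dotted lines give the median of all measured genes under each scaling. Epha5 is far below 0 under each of them, while Plxnd1 stays above 0 but goes from 2.25 to 1.18 on iNSC_13F, and Plxnb3 on iNSC_14F changes side with the scaling.

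Other guidance pathways and the effectors of these receptors were counted from 5 lists. Over all measured genes, 6.09% were 4-fold higher and 7.21% lower on NSC than on MEF. Against MEF the shares were 3.66% and 9.27% on iNSC_13F and 4.49% and 8.03% on iNSC_14F, and against NSC they were 1.07% and 11.3% on iNSC_13F and 1.42% and 9.4% on iNSC_14F. Of the netrins and their receptors, 11 of 15 were measured between NSC and MEF, 2 at least 4-fold higher on NSC and 1 lower, which became 4 and 1 when scaled to the hybridization controls. Ntn1, the secreted midline attractant, had signals of 329.7 on MEF, 1392 on NSC, 5361 on iNSC_13F and 4490 on iNSC_14F, and Unc5b, a netrin receptor that mediates repulsion, had 3191, 65.9, 288.0 and 389.9. Ntn1 was highest on the induced arrays and Unc5b on MEF. Against MEF 1 gene of 9 measured on iNSC_13F and 3 of 10 on iNSC_14F were 4-fold higher, with 1 and 2 lower. Against NSC 1 of 11 was lower (2 when scaled to the hybridization controls) and 0 were higher on iNSC_13F, and 2 of 11 were higher and 1 lower on iNSC_14F. Draxin and Rgma were the genes 4-fold above NSC on iNSC_14F, at 629.1 and 629.5, and 0 genes of the list were when scaled to the hybridization controls.

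Of 10 slits, Robo receptors and their partners, 7 were measured between NSC and MEF, 1 higher and 1 lower by 4-fold, or 2 and 1 when scaled to the hybridization controls. Slit2, a secreted repellent, had signals of 5301 on MEF, 145.2 on NSC, 4.43 on iNSC_13F and 47.1 on iNSC_14F, so that it was 36.5-fold lower on NSC and at least 51.0-fold lower on the induced arrays. Srgap2, a Robo partner that shapes neuronal membranes, was 4.74-fold higher on NSC than on MEF. Against MEF 0 of 8 were higher and 1 lower on iNSC_13F, and 1 of 7 was higher and 1 lower on iNSC_14F. Against NSC 0 of the 6 measured on iNSC_13F and 0 of the 5 on iNSC_14F were 4-fold apart.

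Of 13 semaphorin co-receptors, 10 were measured between NSC and MEF, 3 higher and 1 lower by 4-fold, and against NSC 3 of 11 were lower on iNSC_13F and 2 of 8 on iNSC_14F, the latter 3 of 10 when scaled to the hybridization controls. Against MEF 1 of 12 was higher (0 of 11 under that scaling) and 2 lower on iNSC_13F, and 2 of 11 were higher and 2 lower on iNSC_14F. Chl1, an adhesion molecule that joins Nrp1 in the Sema3a receptor, had signals of 57.1 on MEF, 4752 on NSC, 241.1 on iNSC_13F and 466.5 on iNSC_14F. NSC was the high array, 19.7-fold above iNSC_13F and 10.2-fold above iNSC_14F. Itgb1, the integrin chain used by Sema7a, had signals of 6571 on MEF, 3398 on NSC, 540.9 on iNSC_13F and 606.3 on iNSC_14F, with the induced arrays below both references.

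Of 27 plexin effectors, 26 were measured between NSC and MEF, with 1 higher and 5 lower by 4-fold and a median log2 difference of -0.84, which became -0.03 with 2 higher and 0 lower when scaled to the hybridization controls. On iNSC_13F 0 of 26 were higher than MEF and 4 lower, and on iNSC_14F 0 of 27 were higher and 3 lower. Against NSC 2 of 23 were lower on iNSC_13F and 1 of 24 on iNSC_14F, with 0 higher on either. These became 5 of 26 and 4 of 26 lower when scaled to the hybridization controls, and with quantile normalization iNSC_13F had 1 higher and 0 lower. Dpysl3, a collapsin response mediator that acts downstream of Sema3a, had signals of 8170 on MEF, 1190 on NSC, 242.5 on iNSC_13F and 352.7 on iNSC_14F. It was lowest on the induced arrays.

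Of 29 Eph and ephrin effectors with a probe set, 27 were measured between NSC and MEF, 7 higher and 1 lower by 4-fold, with a median log2 difference of 0.23 that was 1.09 when scaled to the hybridization controls. Against MEF 6 of 28 were higher and 2 lower on iNSC_13F, and 4 of 28 were higher and 2 lower on iNSC_14F. Spsb4, a ubiquitin ligase adaptor that acts on EphB2, had signals of 144.6 on MEF, 2641 on NSC, 5303 on iNSC_13F and 4975 on iNSC_14F. Ptpro, a phosphatase that acts on Eph receptors, had 95.1, 1596, 2773 and 3487, and Chn2, a chimaerin of the family that links EphA4 to Rac, had 47.6, 2422, 2573 and 1376. All 3 were low on MEF and high on the other arrays. Against NSC, 5 genes of this list were lower by 4-fold on each induced array and 0 were higher, and 7 on iNSC_13F and 8 on iNSC_14F were lower when scaled to the hybridization controls.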

How the data were processed

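The labels describe biotin-labelled total RNA on Affymetrix mouse arrays, and the cell type label put each of the 4 samples in a group of its own. The deposited values are array intensities, 1 linear signal per probe set, for which the submitters' processing notes name MAS5, with version and settings not given in the sources used here. Each deposited intensity column had a 2% trimmed mean of 500, so no further scaling was applied. With 1 array per population, precision is limited by their number.

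Of 45101 probe sets, 64 were controls and 34945 had 1 gene in the platform annotation, 34741 of them matched by identifier to RefSeq genes of GRCm38.p6. The 932 that listed several genes and the 9160 that listed no gene stayed unnamed. Where a gene had several probe sets, the brightest over the arrays stood for it. Taste, vomeronasal and odorant receptor genes have 86 probe sets, whose 95th percentile was found per array. The floor is the highest such value, to which lower signals were raised before the log2 step. A member was called when at least 4-fold apart with the brighter array above the floor, and background shares use the same rule over all genes. No test was run, since there are no residual degrees of freedom. The rule was tested on simulated data in which only genes far above the floor were changed. That test does not cover calls that are bounds or lie near the floor.

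All members could be named. Those at least 4-fold apart in any comparison were given with all 4 signals, others by ranges, counts and examples. Of each pathway list up to 4 genes with the largest differences from MEF or NSC were named, and marker genes were given by counts with up to 4 named. The members and lists were chosen with earlier results of these data known. Alternatives were 2 other scalings, 3 other treatments of low signals, 2 other choices of probe set, genes above the floor on both arrays, and a 2-fold rule. The work used Python 3.11.15, pandas 2.3.3, numpy 2.4.6 and matplotlib 3.10.9.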

Additional observations from a re-analysis of the deposited data

How the results depend on the processing

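No paired analysis was possible because each group has 1 array and the labels carry no replicate numbers. The signal over background limits what can be called, since 27 of the 46 calls of members are bounds. With quantile normalization, and without _s_at and _x_at probe sets, every count of 4-fold calls and of places stayed within 1.5 times the reported value. Without _s_at and _x_at probe sets, Plxnb3 was no longer called for NSC over MEF, nor Sema3f for the induced arrays over MEF. Scaled to the hybridization controls, the higher count became 9 of 43 measured for NSC over MEF, beside 16.5% of all genes. It became 0 for both induced arrays over NSC. The lower counts over NSC became 5 of 40 on iNSC_13F, beside 20.3% of all genes, and 4 of 39 on iNSC_14F. Counting members of both directions together, 11 lay within 2-fold of NSC on iNSC_13F and 4 within 2-fold of MEF on iNSC_14F. With a floor at the 75th percentile, 5 members were higher for NSC over MEF, 2 higher and 2 lower for iNSC_13F over NSC, 2 lower for iNSC_14F over NSC, and 1 (Sema6c) lower for iNSC_14F over iNSC_13F. No floor and a pseudocount of 16 gave the same 5, 2, 2, 2 and 1. With the floor at the 75th percentile, 6.29% of all genes were higher for NSC over MEF. For iNSC_13F over NSC 1.38% were higher and 10.5% lower. With a floor at the 99th percentile, 3 were higher and 4 lower for iNSC_13F over MEF, 2 higher and 5 lower for iNSC_14F over MEF, and 5 were within 2-fold of NSC on iNSC_14F. With probe sets of a gene combined by their median, 4 were lower in each of the 3 comparisons with MEF, 3 were higher for each induced array over MEF, 2 were higher for iNSC_14F over NSC, 5 were within 2-fold of NSC on iNSC_14F, and 1 was within 2-fold of MEF on each induced array. Sema6a for iNSC_14F over MEF turned to a log2 difference of -0.053 with that median. Of all genes 6.3%, 6.81% and 6.2% were then lower than MEF on NSC, iNSC_13F and iNSC_14F. Higher than MEF were 3.01% on iNSC_13F and 3.46% on iNSC_14F. With the floor at the 99th percentile, 3.23% of all genes were higher and 8.28% lower on iNSC_13F than on MEF. On iNSC_14F these shares were 3.81% and 7.15%. Of members above the floor on both arrays, 1 was higher and 4 lower for NSC over MEF, beside 4.77% and 5.11% of such genes. For iNSC_13F over MEF 2 were higher and 2 lower, beside 2.68% and 7.15%. For iNSC_14F over MEF 3 were higher and 3 lower, beside 3.21% and 5.74%. For both induced arrays over NSC 0 were lower, where fewer genes enter. At 2-fold, 9 were higher and 16 lower for NSC over MEF, 9 and 12 for iNSC_13F over MEF, 13 and 14 for iNSC_14F over MEF, 10 and 6 for iNSC_13F over NSC, 8 and 8 for iNSC_14F over NSC, and 3 and 3 for iNSC_14F over iNSC_13F. The alternatives for EphA receptors above the floor were chosen after seeing the data. A floor at the 75th percentile gave 6 on MEF, 4 on NSC, 2 on iNSC_13F and 3 on iNSC_14F, scaling to the hybridization controls gave 4 on NSC, the 99th percentile and the median of probe sets gave 1 on NSC, each array's own floor gave 4 on NSC and 2 on iNSC_14F, and any probe set gave 1 on iNSC_14F. The causes of these shifts were not tested, apart from the genes a filter removes.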
